A study of Mus musculus with 5 samples.

Results

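The genes described here are 10 mouse genes of ERK-driven transcription, namely the AP-1 subunits Fosl1, Fos, Jun, Junb, Jund and Atf3, the immediate early genes Ier2, Ier3 and Egr1, and Cd44. Probes were taken where the platform annotation gives exactly 1 gene symbol and that symbol is on this list, which found 10 probes of 7 genes among the 20205 probes and 9669 named genes of the array. No probe is listed there for Fos, Jund or Egr1 alone, and these 3 genes were not analysed. The list was drawn up with the ratios of these arrays already known, so for its genes the comparison of the cell lines is a description, and no p-value is given for it.

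Both cell lines were NIH3T3, an immortalised mouse fibroblast line. The transfected line (Erbb2+ fibroblasts) stably expresses the human receptor tyrosine kinase gene ERBB2 (HER-2/NEU) from a cytomegalovirus promoter, and the other is its un-transfected parent. Both grew in medium with 10% fetal calf serum, and the labels name no serum starvation or stimulation and do not say whether the transfected line is 1 clone. Each of 5 two-colour cDNA arrays carried RNA of both lines, 3 of them for preparation A (A1, A2, A3) and 2 for preparation B (B1, B2), with Erbb2 cDNA in Cy5 on A3 and B2 and in Cy3 on the other arrays.

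Receptor tyrosine kinases of the ERBB family activate Ras and the ERK kinases, which phosphorylate factors such as Elk-1 and thereby switch on immediate early genes without new protein synthesis. Proteins of the Fos and Jun families pair through leucine zippers to form AP-1, a transcription factor that binds the element TGACTCA. Fosl1 (Fra-1) accumulates under sustained ERK signalling, and Cd44, the cell surface receptor of hyaluronan, is known from transformed rat fibroblasts as a gene that AP-1 controls.

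Values are given on the log2 scale as Erbb2-transfected over NIH3T3, and none is a level. No label names the numerator dye. The ratios were read as Cy5 over Cy3, the order of the channels in the labels, so the direction is likely but not settled, and if Cy3 was the numerator every sign below turns. The arrays held values for 26.6% (A1) to 86.4% (B1) of the probes. Arrays of one dye orientation correlated with r from 0.45 to 0.52 across probes as deposited, and arrays of opposite orientation with r from -0.54 to -0.17. No probe named for Erbb2 alone is listed, so the transfected gene could not be checked. The labels do not tie the preparations to separate cultures, so their spread may be technical.

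Among the AP-1 subunits, Fosl1 and Jun were above 0 on every array, whereas Junb took both signs. Cd44 was above 0 on every array and, of the 4 genes with a mean, had the one furthest from 0. Ier2 was below 0 on every array, opposite to Ier3, which was above 0 wherever its gene value existed. Of the 4 genes with a value in both dye orientations of both preparations, which are those that could enter the test, Cd44 and Fosl1 were higher and Ier2 lower past limma's threshold (adjusted p under 0.05), and Jun did not pass. Over all 4892 features tested, 6.79% passed, 2.25% as higher and 4.54% as lower. As the genes were chosen from this comparison, these calls, here and below, describe the genes and are not evidence of a difference. Nothing is read from their count.

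**Figure D1:**
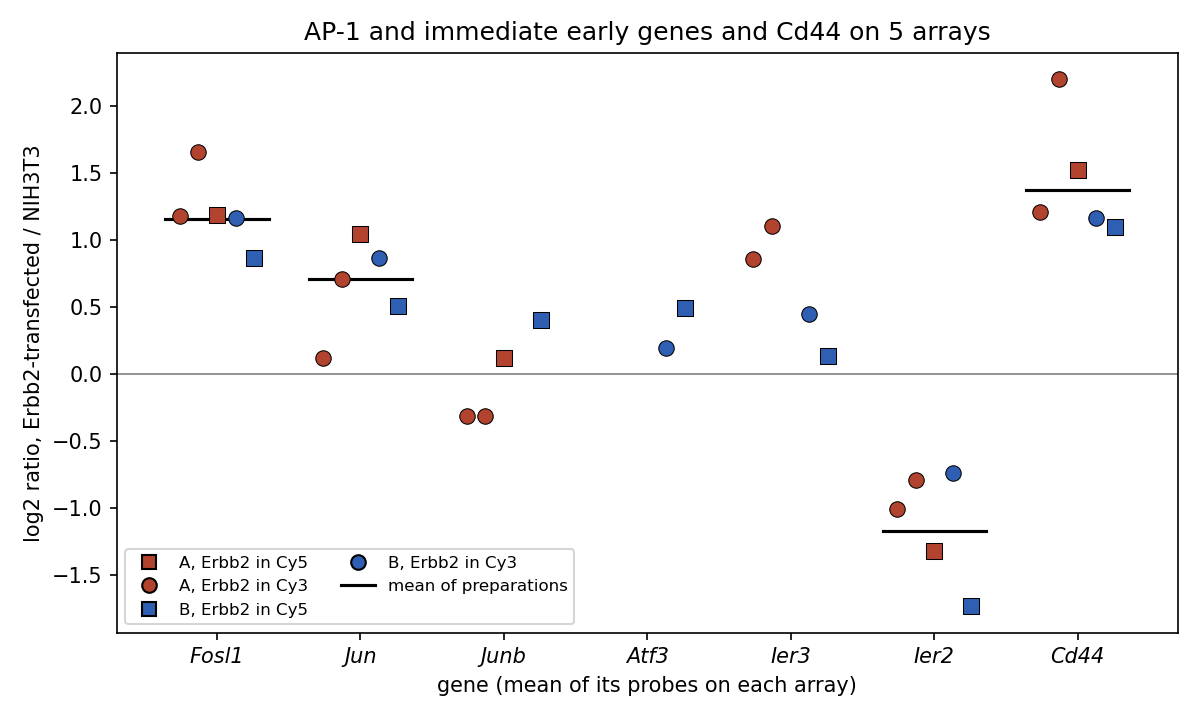
Log2 ratio of Erbb2-transfected over NIH3T3 cells (vertical axis) for the 7 genes with a probe, 1 point for each array with a value. Colours mark the preparations, squares the arrays with Erbb2 cDNA in Cy5 and circles those with it in Cy3, and bars the mean of the 2 preparations where it could be formed. Fosl1, Jun, Ier3 and Cd44 lie above 0, Ier2 lies below 0, and Junb lies on both sides.

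Fosl1, whose product Fra-1 pairs with Jun proteins, had log2 ratios of 1.18 on A1, 1.66 on A2, 1.19 on A3, 1.16 on B1 and 0.86 on B2. Its single probe was thus above 0 on each array, with A2 highest and B2 lowest. The preparations averaged 1.30 in A and 1.01 in B, a mean of 1.16 ± 0.20 (SD, n = 2 preparations), or 2.23-fold. Within each array the gene ranked between the 94.8th (B2) and the 98.9th (A2) percentile of all features, or between the 5.21st (B2) and the 1.10th (A2) if the signs turn. Of the tested features, 2.66% had a mean further from 0. Fosl1 no longer passed when dye balance was not required and more than 2 times as many features were tested.

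Jun, the main partner of Fos proteins, had 0.12 on A1, 0.71 on A2, 1.05 on A3, 0.87 on B1 and 0.51 on B2. All these were above 0, but A1 lay nearest to it, at the 57.6th percentile of that array, or the 42.4th if the signs turn. The mean of the preparations was 0.71 ± 0.03 (SD, n = 2), or 1.63-fold. This small SD does not show the spread between arrays, which was 0.36 (SD, n = 5). The probe with values on all arrays had 0.65 on A2 and 0.83 on B1, and the second probe 0.78 and 0.90 on the same arrays, its only values. Jun passed the threshold without array A1, with 5 arrays and a dye term, and when 1 probe stood for the gene, so its call depends on the setting.

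Junb, a Jun family member that can oppose Jun, had -0.31 on A1, -0.31 on A2, 0.12 on A3 and 0.40 on B2, with no value on B1. Its sign followed the dye orientation. As deposited, before the dye exchange was accounted for, all 4 values were above 0, from 0.12 to 0.40. With Erbb2 cDNA in Cy5 the mean was 0.26 and with it in Cy3 -0.31. Preparation B had 1 orientation only, so Junb entered neither the comparison of lines nor the test of dye.

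Atf3, a stress-induced subunit of the ATF family that pairs with Jun proteins, had values in preparation B alone, 0.19 on B1 and 0.49 on B2. Both were above 0, at the 67.3rd and 82.1st percentile (32.7th and 17.9th if the signs turn), and preparation A gave no value.

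Ier3 (IEX-1), an immediate early gene that affects cell survival, had 0.86 on A1, 1.10 on A2, 0.45 on B1 and 0.14 on B2 as the mean of its pair of probes. Each was above 0, and both values of preparation A exceeded both of preparation B. The probes differed. One had 1.22, 1.07, 0.22 and 0.33 on A1, A2, B1 and B2. The other had 0.51, 1.14, 0.68 and -0.05, so that B2 was below 0 there. Array A3 had no value for either probe, and Ier3 was not tested.

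Ier2, an immediate early gene whose nuclear product takes part in transcription, had -1.01 on A1, -0.79 on A2, -1.32 on A3, -0.74 on B1 and -1.73 on B2. All arrays were below 0, and the pair with Erbb2 cDNA in Cy5, A3 and B2, was lowest. The preparations averaged -1.11 in A and -1.23 in B, a mean of -1.17 ± 0.09 (SD, n = 2), or 2.25-fold lower in Erbb2-transfected cells. Within its arrays the gene ranked between the 1.49th (B2) and the 10.02nd (A2) percentile, or between the 98.5th (B2) and the 89.98th (A2) if the signs turn. Ier2 no longer passed without array A3 or without array B2, where its means were -1.07 and -0.92. It also did not pass when dye balance was not required.

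Ier2 and Junb lie 314 kb apart on mouse chromosome 8, at chr8:84661331-84662852 and chr8:84976909-84978748 (GRCm38.p6, gene table of RefSeq). Ier2 was below 0 on all 5 arrays and Junb on A1 and A2 only.

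Cd44 had 1.21 on A1, 2.20 on A2, 1.52 on A3, 1.16 on B1 and 1.10 on B2. All were above 0, with A2 well above the rest. The preparations averaged 1.61 in A and 1.13 in B, a mean of 1.37 ± 0.34 (SD, n = 2), or 2.59-fold. It ranked at the 95.7th percentile or higher on every array, or at the 4.26th or lower if the signs turn, and 1.55% of the tested features had a mean further from 0. Its probes had 2.15 and 2.25 on A2. On A1 they had 1.39 and 1.03 and on B1 1.07 and 1.26, and the second probe had no value on A3 and B2.

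Of the 4 tested genes, all had 1 sign on all 5 arrays. Among the 2872 features with values on all 5 arrays, 24% did. The median of the 4 means was 0.93, against -0.02 over all tested features. These counts describe genes chosen from the same ratios.

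**Figure D2:**
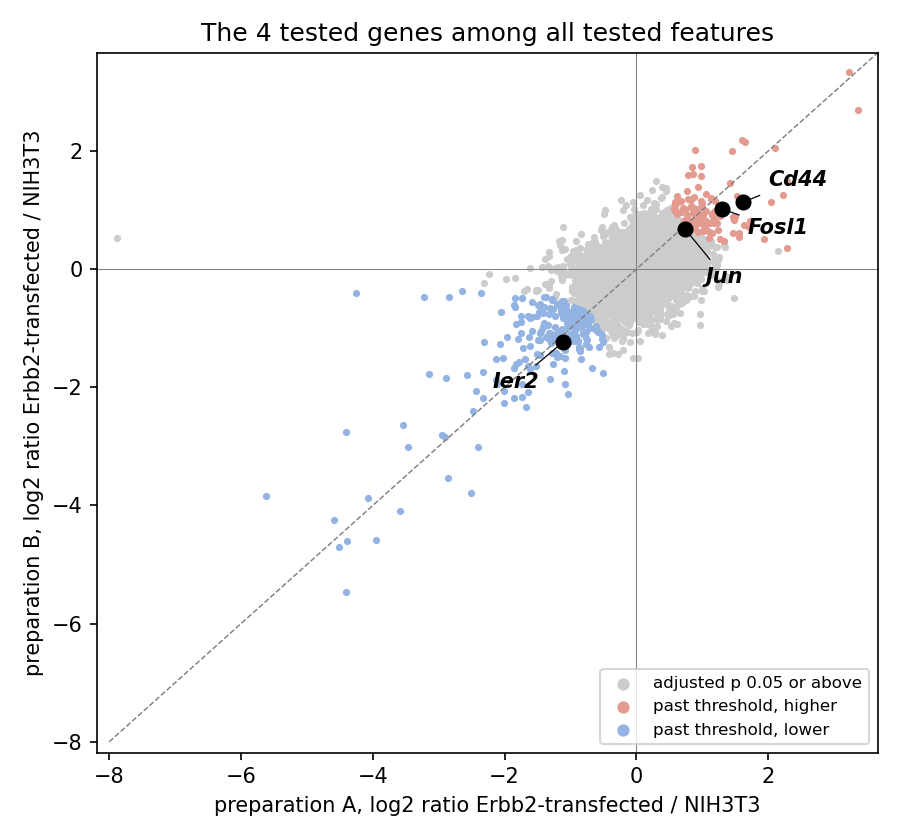
Mean log2 ratio of Erbb2-transfected over NIH3T3 cells in preparation A (horizontal axis) and preparation B (vertical axis) for the 4892 tested features, with the dashed line marking equal values. Coloured points passed the threshold, and black points are Fosl1 (1.30 and 1.01), Jun (0.73 and 0.69), Ier2 (-1.11 and -1.23) and Cd44 (1.61 and 1.13).

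The difference between preparations and the dye effect were not themselves used to choose the genes. They come from the same arrays, however, and the comparison of lines takes its spread from the preparations. They are thus not independent of that choice. The difference between preparation A and preparation B in the log2 ratio was taken from a fit to the 5 arrays with a dye term. It was 0.28 ± 0.38 for Fosl1, -0.03 ± 0.40 for Jun, 0.08 ± 0.38 for Ier2 and 0.49 ± 0.40 for Cd44 (± SE). It is not the difference of the preparation means, which for Jun were 0.73 in A and 0.69 in B. Of these 4 genes, 0 passed limma's test, with adjusted p from 0.925 to 0.997, and 0 had an unadjusted p under 0.05. Over all features, 0.0204% passed and 6.75% had an unadjusted p under 0.05. At these SEs, a difference of the size seen for Cd44 could not be told from none.

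The dye effect, the coefficient of dye orientation coded as 1 for Erbb2 cDNA in Cy5 and -1 for it in Cy3, was -0.13 ± 0.19 for Fosl1, 0.10 ± 0.20 for Jun, -0.33 ± 0.19 for Ier2 and -0.07 ± 0.20 for Cd44 (± SE). In limma's test 0 of the 4 passed (adjusted p from 0.472 to 0.924), and 0 had an unadjusted p under 0.05. Over all features 0.593% passed and 13.2% had an unadjusted p under 0.05. Ier2 lay furthest from 0, with -1.53 on average with Erbb2 cDNA in Cy5 and -0.85 with it in Cy3. Cd44 had 1.31 and 1.52, and Fosl1 1.03 and 1.33, in the same order.

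**Figure D3:**
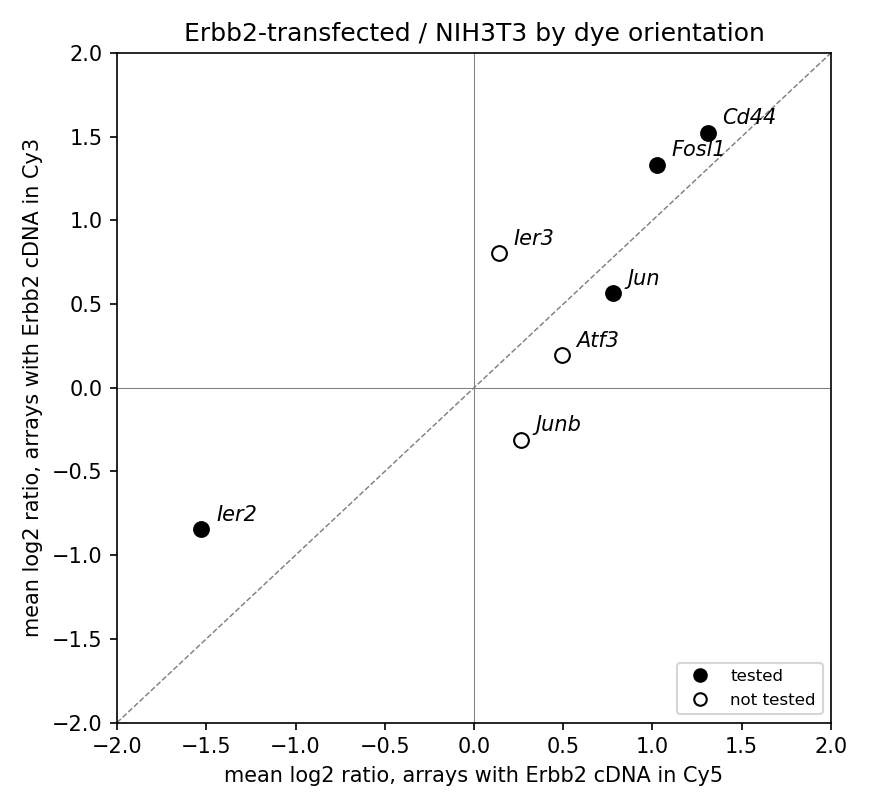
Mean log2 ratio of Erbb2-transfected over NIH3T3 cells on arrays with Erbb2 cDNA in Cy5 (horizontal axis) and in Cy3 (vertical axis), 1 point per gene, filled where the gene was tested. On the dashed line both orientations are equal. Junb, at 0.26 and -0.31, lies where the signs differ, and the other genes have 1 sign in both orientations.

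Promoter sequence was given for 7 of the 10 genes. Fosl1 and Ier2 were among those without it. Those of Jun, Ier3 and Cd44 are shown because the gene value, averaged over probes, was above 0 on every array that measured it, 4 or more for each. Each run is the 250 bases before the transcription start that its promoter entry uses, in RefSeq's annotation of GRCm38.p6, written on the gene's strand. The runs lie at chr4:95052223-95052472 (minus strand) for Jun, chr17:35821463-35821712 (plus strand) for Ier3 and chr2:102901666-102901915 (minus strand) for Cd44. In the gene table Cd44 reaches 102901669, so the last bases of its run lie inside the gene as annotated there. Capitals mark matches on either strand to TGACTCA (AP-1), TGACGTCA (the ATF and CREB element), TGACATCA (the variant known from the Jun promoter), the CArG box bound by serum response factor, GGGCGG and TATAAA.
Jun: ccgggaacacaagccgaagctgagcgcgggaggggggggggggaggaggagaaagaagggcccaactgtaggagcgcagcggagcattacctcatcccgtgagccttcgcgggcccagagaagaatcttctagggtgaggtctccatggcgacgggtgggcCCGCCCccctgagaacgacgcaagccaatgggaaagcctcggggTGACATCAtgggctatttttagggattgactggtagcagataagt
Ier3: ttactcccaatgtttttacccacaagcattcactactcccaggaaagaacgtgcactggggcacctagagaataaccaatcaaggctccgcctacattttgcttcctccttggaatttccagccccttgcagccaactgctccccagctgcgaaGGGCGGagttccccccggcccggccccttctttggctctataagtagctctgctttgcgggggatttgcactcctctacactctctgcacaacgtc
Cd44: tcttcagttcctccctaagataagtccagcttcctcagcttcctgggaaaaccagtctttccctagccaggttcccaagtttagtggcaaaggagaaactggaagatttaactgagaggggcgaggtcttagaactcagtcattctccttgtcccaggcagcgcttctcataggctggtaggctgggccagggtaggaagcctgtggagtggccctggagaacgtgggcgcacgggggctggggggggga

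The Jun run holds TGACATCA at bases -45 to -38 from the start, which 2.93% of the 32851 promoters of this length hold. GGGCGG, found in 32.7% of promoters, lies at -89 to -84 in Jun on the opposite strand and at -96 to -91 in Ier3. TGACTCA, TGACGTCA and the CArG box occur in none of the 3 runs, and in 4.46%, 1.55% and 1.47% of all promoters. The Cd44 run holds none of the 6 motifs. The motifs were chosen after the sequences had been read, and a match or its absence in these 250 bases describes letters only.

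Of the other AP-1 and ATF bZIP genes, 6 were tested, and 0 rose and 0 fell by limma's test over all features. The lowest adjusted p in limma was 0.0831, for Fosb. The median of the 6 genes was -0.23. Over all tested features 2.25% were higher and 4.54% lower. This list and those below were drawn up with earlier results of these data known. Their counts and adjusted p-values describe the genes and are not independent support. Fosb, a close relative of Fos, had the mean furthest from 0, at -0.65 ± 0.04 (SD, n = 2), with -0.21 on A2, -1.15 on A3, -1.11 on B1 and -0.15 on B2. All 4 values were below 0. The SD of 0.04 does not show the spread between arrays, from -1.15 to -0.15. Fosb and Fosl1, 2 Fos family genes, thus lay on opposite sides of 0. Fosb passed when only probes with both orientations in both preparations were averaged. It has 1 probe, and its mean was -0.65 there too, so its own values did not change. Atf4 had 0.31 and Atf2 -0.25, and neither passed.

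Of 10 further immediate early genes tested, 4 fell, 0 rose and 6 did not pass, with a median of -0.24. Over all tested features, 4.54% fell and 2.25% rose. Ccn1, a secreted matricellular protein gene induced by serum, had -3.15 ± 0.90 (SD, n = 2; adjusted p = 4.88e-05 in limma). On A2 it had -0.75 and on B2 -4.06. Zfp36l1, which encodes a protein that destabilises AU-rich mRNAs, had -1.47 ± 0.05 (adjusted p = 0.00146), with all arrays between -2.09 and -1.20. Id3, an inhibitor of basic helix-loop-helix factors, had -1.01 ± 0.31 (adjusted p = 0.0166), and Gadd45b, a stress-induced gene that acts on the JNK and p38 kinases, had -0.95 ± 0.18 (adjusted p = 0.0193).

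Id3 lost its call without array B1, and Gadd45b lost it when A3, B1 or B2 was left out and after scaling the arrays to equal spread. Both also lost it when dye balance was not required and at an adjusted p under 0.01. The pair of probes of Gadd45b lay apart, between -0.62 and 0.17 for one and between -3.04 and -0.94 for the other. When the probe with values on most arrays stood for the gene, Gadd45b had -0.27 and did not pass. The transcription factor genes Srf and Klf2 had -0.21 and -0.02 and did not pass. Without B1, 2 of the 10 genes fell, and 170 of the 5198 features tested in that setting.

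Of the genes of the ERK cascade itself, 7 were tested and 0 rose or fell by limma's test over all features. Over all tested features 2.25% rose and 4.54% fell. The means of the 7 genes ran from -0.16 for Ets1 to 0.47 for Elk3, a ternary complex factor that binds with serum response factor. Without array A3, 1 of 10 ERK cascade genes fell, and 138 of the 8074 features tested in that setting. Map2k1, the kinase that activates ERK, had 0.06 ± 0.13, and Shc1, the adaptor that couples receptors to Ras, had -0.03 ± 0.30.

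Of 5 tested genes that restrain ERK signalling or are induced by it, 1 fell and 0 rose. The shares over all tested features were 4.54% and 2.25%. Rgs2, which switches off G protein alpha subunits, had -3.58 ± 1.17 (adjusted p = 5.17e-05 in limma), with all arrays between -5.53 and -1.83. Dusp6, the phosphatase that inactivates ERK and a gene that ERK induces, had 1.57 on A2, 1.08 on A3, 0.49 on B1 and 0.34 on B2. All were above 0 and higher in preparation A than in B, and the mean of 0.87 ± 0.65 did not pass (adjusted p = 0.0582 in limma). Dusp6 passed as higher in 4 alternatives, with adjusted p of 0.046 with 5 arrays and a dye term, 0.025 with the probe on most arrays, 0.00679 with only probes in both orientations, and 0.0153 without A1. Dusp6 has 1 probe and no value on A1, so its own values and its mean of 0.87 were the same in these 4. Only the test around them changed. Over the other alternatives of Dusp6 the adjusted p reached 0.184. Dusp1, an immediate early phosphatase, had -0.60 ± 0.25 and did not pass. Without array A1, 1 of the 5 rose (Dusp6) and 2 fell (Rgs2 and Dusp1). Of the 4844 features tested in that setting, 192 rose and 306 fell.

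In the JNK and p38 cascade, whose JNK kinases phosphorylate Jun, 6 genes were tested, of which Gadd45b alone passed, as lower. Of all tested features, 4.54% passed as lower. Gadd45b also stands in the list of immediate early genes, and its call has the limits given there. Map2k4, the kinase above JNK, had 0.58 ± 0.33, and Mapk8, which encodes JNK1, had -0.48 ± 0.50. Neither passed.

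Of 9 tested genes known as AP-1 targets, 1 rose, 1 fell and 7 did not pass, with a median of 0.16. Among all tested features, 2.25% rose and 4.54% fell. Mt2, a metallothionein gene, had 0.76 ± 0.06 (adjusted p = 0.0494 in limma), with all arrays between 0.59 and 0.91. This call sits at the threshold and was lost without A3, B1 or B2 and after scaling or quantile normalization of the arrays. It was also lost when dye balance was not required. Sparc, a matrix protein gene that Jun represses in rat fibroblasts, had -2.46 ± 0.98 (adjusted p = 0.000423). Ccnd1, the cyclin D1 gene, had 2.28 on A1 and 1.51 on A2 but -0.45 on A3, and did not pass.

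Of 8 tested genes of Cd44 ligands, partners and hyaluronan metabolism, 1 fell and 0 rose, with a median of -0.13. Among all tested features, 4.54% fell and 2.25% rose. Itih2, a hyaluronan-binding heavy chain, had -5.61 on A1, -2.53 on A2 and -4.43 on A3, and -0.49 on B1 and -0.31 on B2. All were below 0, with every value of preparation A below both of B. Its mean was -2.33 ± 2.72 (adjusted p = 0.0454), which was not called in 5 of 15 alternatives. Their adjusted p ranged from 4.48e-09 to 0.625, the highest with a robust variance estimate. The difference between preparations was -3.81 ± 0.63 (SE; adjusted p = 0.0507). The sheddases Adam10 and Adam17, which can cleave Cd44, had 0.51 and -0.51, and neither passed.

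**Figure D4:**
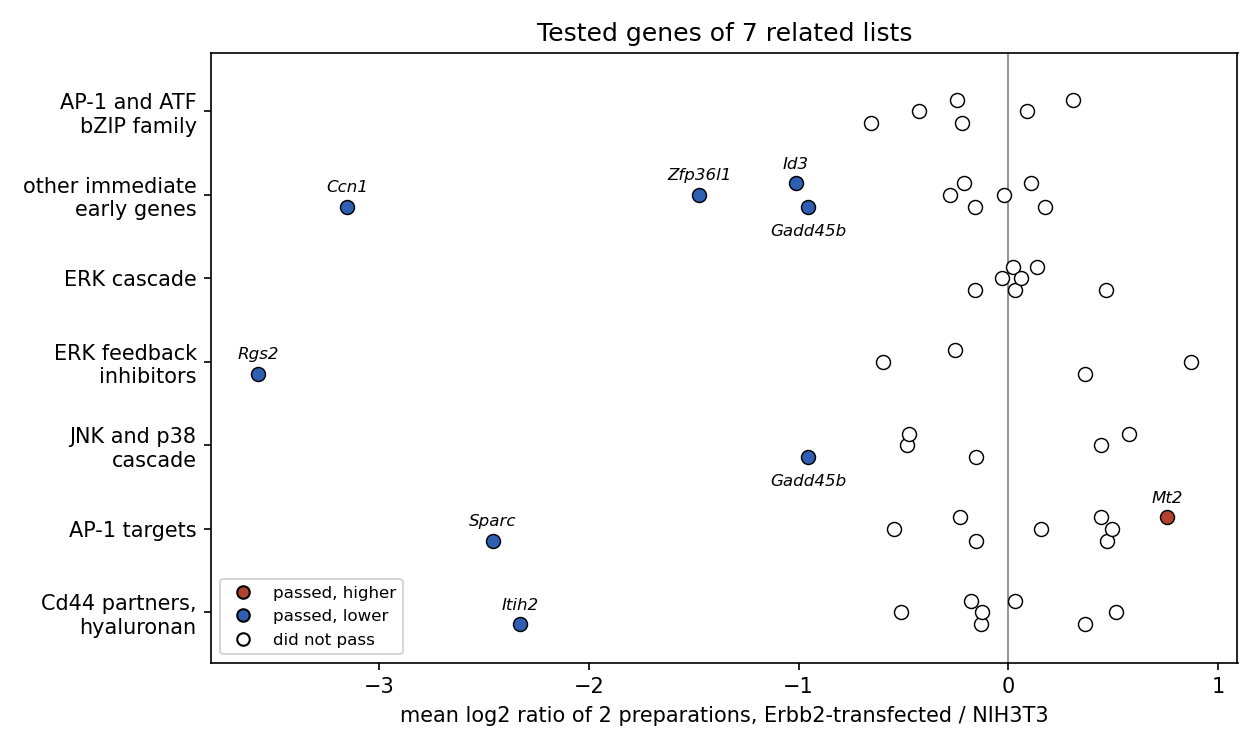
Mean log2 ratio of Erbb2-transfected over NIH3T3 cells for the tested genes of the 7 related lists (horizontal axis, 1 row per list). Filled points passed limma's threshold over all features and are named, and open points did not pass. Among the filled points Mt2 (0.76) alone lies above 0, and Gadd45b stands in 2 rows.

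Genes whose ratios were most like those of the called genes were found by the root mean square difference over the 5 arrays, among 2006 other genes with values on all of them. Closest to Fosl1 were Prdx2 (0.24), Arl11 (0.29) and Cd44 (0.30). Closest to Cd44 were Oaf (0.25), Fosl1 (0.30) and Fip1l1 (0.40). Fosl1 and Cd44 are near each other in this list, but both were chosen with these same ratios known, so nothing is read from it. Closest to Ier2 were Rpl15 (0.16), H2-Q10 (0.17) and Adgrl2 (0.19). Likeness here reflects size and sign on shared arrays and hybridisations.

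Markers of fibroblasts and of other cell types were read as ratios, so their presence in either line could not be told. Over all tested features 4.54% fell and 2.25% rose. Of 7 tested fibroblast markers, 4 fell (Col1a1 -4.93, Fn1 -4.61, Col1a2 -3.97 and Sparc -2.46), 0 rose and 3 did not pass. Of these 3, Vim had 0.47 and was above 0 on all 5 arrays, from 0.13 to 0.75, with an adjusted p of 0.218 in limma. Col3a1 had a mean of 0.51, with 2.70 on A1 and -0.64 on B2, and S100a4 had -0.01. Of the epithelial, endothelial and skeletal muscle markers 1 each was tested, namely Krt19 (0.19), Flt1 (0.16) and Tnnt3 (0.21), and none of these passed. For leukocytes and adipocytes 0 markers were tested.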

How the data were processed

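The values were measured on spotted cDNA arrays. Per the labels, the authors scanned with a GenePix 4000A, processed images with GenePix Pro 3.0, subtracted background from mean intensities and scaled each array to a median ratio of 1. The deposited values were taken as log2 ratios of the dyes, with array medians from -0.0017 to 0.0071. The log base, numerator dye and rule for empty values are not given in the sources used here.

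Values of arrays with Erbb2 cDNA in Cy3 were turned. Of 20205 probes, 11723 had 1 gene symbol, 806 several and 7676 none listed; 11590 matched a gene table of GRCm38.p6 by Entrez identifier, which changed 0 symbols. Probes of 1 symbol were averaged, giving 18151 features. Within each preparation, arrays of one orientation were averaged, then the orientations. The 4892 features (3134 genes) with both orientations in both preparations were tested with limma 3.58.1 (R 4.3.3) on 2 preparation means against 0, with Benjamini-Hochberg adjustment. Each feature had 1 residual degree of freedom against 10.2 prior ones. Dye and preparation effects were tested in limma on 5 arrays with both terms. Precision is limited by there being 5 arrays. The fits were run on simulated data with separate noise on each array. That checked the code only, and no error rate is taken from it.

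The genes and lists were chosen with earlier results of these data known. Genes named are those described here, up to 4 past the threshold per list (otherwise the 1 furthest from 0), and the 3 nearest genes of each called gene; others named were chosen after their values were seen. Alternatives covered replication, dye term, centring, scaling, missing values, probe summary, variance, threshold and each array left out. Figures were drawn with matplotlib 3.10.9 (Python 3.11.15).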

Additional observations from a re-analysis of the deposited data

Results flagged for a closer look

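Among 29 named genes with 4 or 5 values, 3 had 1 array that stood apart, which chance gives in about 5% of genes. Sparc had -0.62 on B2 against -3.31 to -2.72 on the other arrays, where 1 of its 3 probes had 1.42 on B2 and another -2.67. Fn1 had -4.01 on A2 against -4.72 to -4.61. Flt1 had 0.53 on A2 against 0.01 to 0.07. None of the AP-1 and immediate early genes nor Cd44 was among them.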

How the results depend on the processing

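The 332 features past the threshold became 124 after scaling the arrays to equal spread, 193 after quantile normalization, 149 when dye balance was not required (11817 features tested), 564 when only probes measured in both orientations of both preparations were averaged, and 120 at an adjusted p under 0.01. Without 1 array they ranged from 198 (without B2) to 498 (without A1), with 211 without B1 and 219 without A3. Of the genes described, 3 passed, against 1 (Cd44) when dye balance was not required and 2 to 4 without 1 array. Fosl1, Jun, Ier2 and Cd44 kept their sign in every alternative run. The dye effect was found for 29 features, against 7 after scaling, 8 after quantile normalization, 18 with the probe on most arrays, 18 with only probes in both orientations, 6 at an adjusted p under 0.01 and 2 to 256 without 1 array. Between preparations 1 feature differed, against 1 to 25 without 1 array. With repetition number as a replicate block in place of the dye term it was 1; block and dye term together leave no residual degrees of freedom, and the numbers mark no shared culture in the labels. The causes of these changes were not tested. The files hold no intensities, so dim spots could not be set aside.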
